A study of Rattus norvegicus with 8 samples.

Results

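Striated muscle genes were followed in RNA from whole rat ovary, an organ that contains smooth muscle but no skeletal muscle of its own. The 10 genes were Myh4, Myom2, Acta1, Tnnt3, Tnni2, Tnnc2, Ckm, Mb, Ankrd2 and Dhrs7c, out of 26204 gene names with a usable probe on the array. They were taken up by name, every non-control probe carrying one of these names being a member, and each gene had 1 probe. The genes were chosen by their log2 levels on these same arrays, so the differences of the 10 genes between labels and their joint variation between arrays are descriptions and carry no test. Ovary RNA was measured on 1-colour Agilent arrays, 4 labelled control and 4 labelled PMSG. The PMSG group were female rats given 50 IU of pregnant mare serum gonadotropin, a hormone with follicle-stimulating activity, under the skin at 26 days of age, dissolved in 0.2 ml of a phosphate buffer with albumin. The control group received 0.2 ml of the buffer without hormone, and ovaries of both groups were collected 48 h later at 28 days. No genotype or strain enters the labels used here, which number the replicates 1 to 4 without saying how many ovaries or animals each holds, so the spread between arrays may be partly technical. The hormone-responsive gene Cyp11a1, which encodes the first enzyme of steroid synthesis, was lower on arrays labelled PMSG (log2 difference -3.36), which is not the direction usually described after this hormone. Directions therefore follow the labels alone, and each is a statement about arrays labelled PMSG or control.

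Striated muscle contracts when myosin heads of the thick filament pull on actin of the thin filament. Calcium released from the sarcoplasmic reticulum binds troponin C, and the troponin complex then frees the actin sites. In the ovary, contraction is the work of smooth muscle in the stroma and vessel walls, which uses its own actin and myosin and no troponin. Skeletal, cardiac and smooth muscle cells and the cells around them share many of these genes in part, and whole-ovary RNA mixes all cells of the organ and whatever tissue came with it. In such RNA, fewer cells of a type and less RNA per cell cannot be told apart.

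Promoter sequences are shown for 4 of the genes, because Acta1, Tnnc2 and Ckm varied together between arrays more closely than any other of the 10 and Ankrd2 did not vary with them. The sequences are the 250 bases before the annotated start in RefSeq (GRCr8), written 5′ to 3′ on the strand of the gene; a promoter could be matched by symbol for 7 of the 10 genes, which left Myom2, Tnnt3 and Dhrs7c unmatched. Capitals mark letters of the searched motifs, which were the E-box CANNTG bound by MyoD-type factors, the MEF2 site, the CArG box bound by serum response factor, TATAAA and the MCAT motif CATTCC, all searched on both strands. Acta1 lies on the minus strand at chr19:68784195-68784444, Tnnc2 on the minus strand at chr3:173935340-173935589, Ckm on the plus strand at chr1:88189211-88189460 and Ankrd2 on the plus strand at chr1:250796169-250796418.
Acta1: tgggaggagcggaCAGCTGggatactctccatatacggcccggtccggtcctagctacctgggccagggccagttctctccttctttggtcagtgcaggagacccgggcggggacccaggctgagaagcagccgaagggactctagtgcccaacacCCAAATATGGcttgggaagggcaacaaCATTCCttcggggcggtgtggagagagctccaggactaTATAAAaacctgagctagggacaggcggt
Tnnc2: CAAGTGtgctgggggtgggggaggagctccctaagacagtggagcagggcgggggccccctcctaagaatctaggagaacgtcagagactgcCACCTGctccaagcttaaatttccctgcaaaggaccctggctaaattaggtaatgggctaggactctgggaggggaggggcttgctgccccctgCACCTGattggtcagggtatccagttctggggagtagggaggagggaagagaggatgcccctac
Ckm: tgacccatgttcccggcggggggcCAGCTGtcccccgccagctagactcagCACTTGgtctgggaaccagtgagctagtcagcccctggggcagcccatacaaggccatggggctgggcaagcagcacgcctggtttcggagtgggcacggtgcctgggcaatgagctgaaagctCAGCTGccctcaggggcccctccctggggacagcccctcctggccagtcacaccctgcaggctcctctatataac
Ankrd2: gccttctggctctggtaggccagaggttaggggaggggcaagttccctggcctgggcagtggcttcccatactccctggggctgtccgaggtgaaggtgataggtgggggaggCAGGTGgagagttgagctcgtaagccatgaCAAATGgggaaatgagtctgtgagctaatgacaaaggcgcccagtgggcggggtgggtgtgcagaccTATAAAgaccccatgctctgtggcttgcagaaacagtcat
An E-box was found in 7 of the 7 member promoters and in 65.2% of the 27457 RefSeq promoters cut to the same length. The Tnnc2 and Ckm windows held 3 E-box positions each, Acta1 held 1 and Ankrd2 held 2. TATAAA was found in 5 of 7, against 13.1% of all promoters, and was not among the letters of the Tnnc2 and Ckm windows. A CArG box was found in 2 of 7, those of Acta1 and Myh4, against 1.50% of all, and CATTCC in the same 2, against 11.8%. A MEF2 site was found only in the Myh4 window among the 7, against 3.07% of all, where it overlapped a TATAAA. A match is a run of letters and not a shown binding site. Acta1 and Tnnc2, whose deviations from array to array ran closest, shared the E-box but neither the CArG box nor TATAAA.

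The arrays were close to each other in depth, with a 75th percentile of processed signal between 769 and 1103 and 80.8% to 84.6% of probes well above background. Array correlations across probes were 0.977 to 0.993 within a label and 0.960 to 0.972 between labels. Of 25303 tested probes, 34.2% differed between the labels (limma, Benjamini-Hochberg adjusted p under 0.05), 4452 higher and 4206 lower on arrays labelled PMSG. With median centring in place of the 75th percentile the split was 2914 higher against 5534 lower. Over all tested probes the log2 differences had a median of 0.11, which moved to -0.05 with median centring, so every difference is to be read against a shift of that size. The ovary markers fixed for a check of the tissue were present on the arrays, among them the oocyte growth factor Gdf9, which was higher on arrays labelled PMSG by 2.05 (log2). As a check of the label of striated muscle, 66 of 85 other striated muscle genes measured were well above background on all 8 arrays, among them the regulators Myog and Myf5, the fast myosin light chain Mylpf and the Z disc gene Actn3. The fast myosins Myh1 and Myh2 were so on 3 arrays and 1 array, the regulator Myod1 on 1 array, and 4 genes, Myot, Trim63, Myf6 and Musk, on none. Of all 30350 probes kept, 22943 met the same mark on every array. This share is close to that of the 85 genes, so the count does not set striated muscle genes apart. The markers were present in part, and the 10 genes are named by gene and not as the sign of a cell type.

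Each of the 10 probes stood well above background on each of the 8 arrays. Levels are log2 signals minus the array's 75th percentile, so that a negative value lies below that percentile, and levels of different probes cannot be compared. On this scale 9 of the 10 genes had a higher mean on arrays labelled PMSG, and 1, Acta1, a lower one, where 58.0% of all tested probes had a higher mean. In the limma fit over all probes 6 of the 10 were past the threshold, 5 higher and 1 lower, where 34.2% of all tested probes were, 17.6% higher and 16.6% lower. The groups did not overlap for 5 of the 10, 4 higher and 1 lower, where 36.6% of all tested probes did not, 17.9% higher and 18.6% lower. Differences reached 2-fold for 6 of the 10, 5 higher and 1 lower, where 14.0% of all did, 8.49% higher and 5.47% lower. Because the genes were proposed from values of these same arrays, nothing is read from these counts. The median log2 difference of the 10 was 1.14, beside 0.11 over all tested probes.

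**Figure D1:**
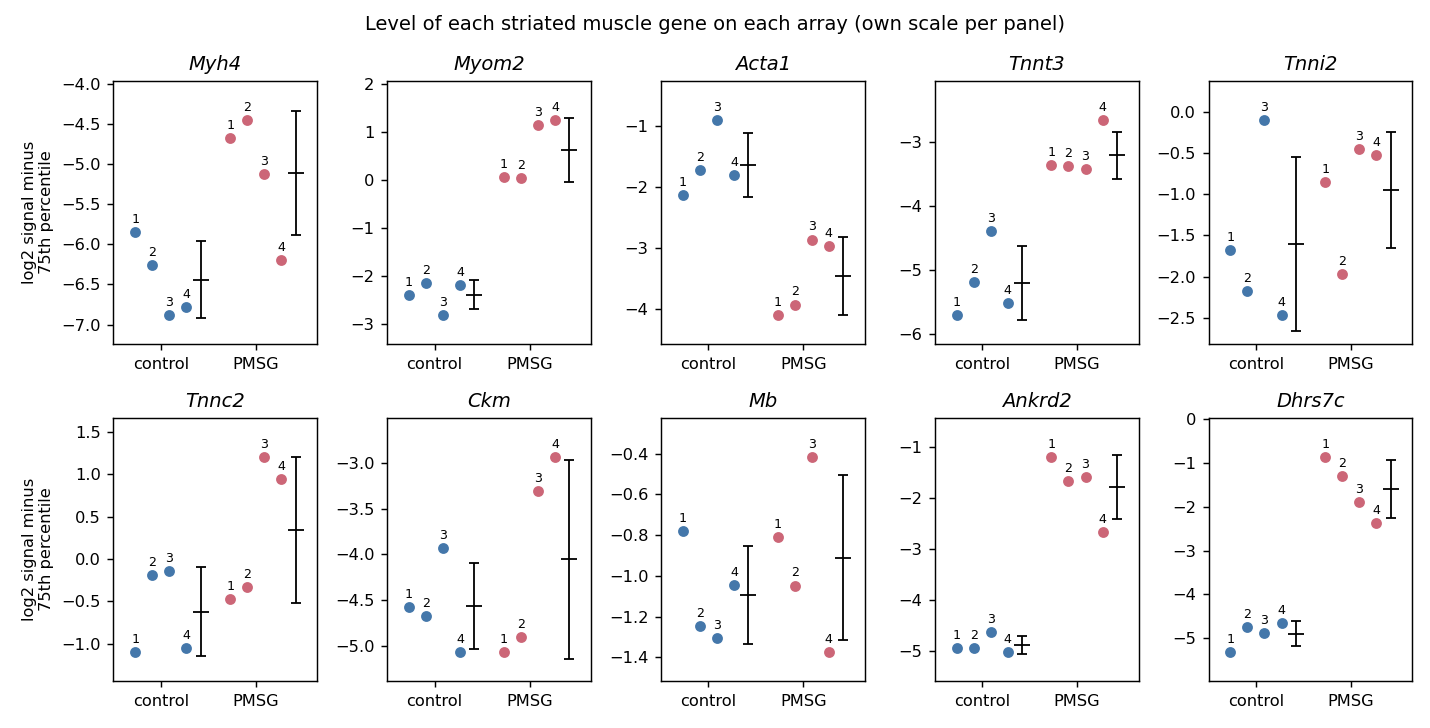
Level of each of the 10 genes on each array (vertical axis: log2 signal minus the 75th percentile of the array, own scale per panel; blue points: arrays labelled control, red points: arrays labelled PMSG, numbered by replicate; black bars: mean and SD, n = 4). Myom2, Tnnt3, Ankrd2 and Dhrs7c show groups that do not overlap, higher on arrays labelled PMSG, and Acta1 shows the opposite.

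Of the thick filament and M band, Myh4 and Myom2 were members. Myom2, which encodes a myomesin that cross-links thick filaments at the M band, stood at -2.40, -2.15, -2.81 and -2.19 on control arrays 1 to 4. On PMSG arrays 1 to 4 it stood at 0.06, 0.03, 1.15 and 1.25. Every array labelled PMSG lay above every control array, and PMSG arrays 3 and 4 lay above 1 and 2 by more than the whole control range of 0.67. This made a log2 difference of 3.01 (SE 0.32), which is 8.04-fold. Its probe lies at chr16:79330604-79330663 in rn4, the build of the array files.

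Myh4, the heavy chain of the fastest skeletal myosin (type IIb), was the dimmest of the member probes, with processed signals of 8.51 to 46.9. Its levels were -5.84, -6.26, -6.88 and -6.78 on control arrays 1 to 4 and -4.68, -4.45, -5.12 and -6.20 on PMSG arrays 1 to 4. PMSG array 4 fell within the control range, so the groups overlapped, and the other PMSG arrays lay above it. The log2 difference was 1.33 (SE 0.40), and it came to 0.42 after normexp background correction. The paired spots of this probe differed with an SD of 0.82, more than those of the other member probes, whose spot SDs were 0.05 to 0.27. The probe lies at chr10:53951729-53951788 (rn4).

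The thin filament gave 4 members. Acta1, the actin of skeletal muscle filaments, stood at -2.13, -1.72, -0.90 and -1.80 on control arrays and at -4.09, -3.92, -2.85 and -2.96 on PMSG arrays. All PMSG arrays lay below all control arrays, which made Acta1 the member with the lower direction. Its log2 difference was -1.82 (SE 0.36), or 0.283 of the control level (chr19:54082977-54083036 in rn4). Within each label array 3 was highest and array 1 lowest.

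Tnnt3, the fast skeletal troponin T that ties the troponin complex to tropomyosin, stood at -5.70, -5.19, -4.39 and -5.52 on control arrays. On PMSG arrays it stood at -3.36, -3.38, -3.42 and -2.65. The groups were apart, with PMSG arrays 1 to 3 close to each other and PMSG array 4 above them. Tnnt3 had a log2 difference of 2.00 (SE 0.31), and 1.04 after normexp background correction (chr1:202758664-202758723 in rn4).

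Tnni2, the fast skeletal troponin I that holds actin sites closed at low calcium, had levels of -1.68, -2.17, -0.10 and -2.46 on control arrays. On PMSG arrays they were -0.85, -1.97, -0.45 and -0.53. Control array 3 was the highest of all 8 arrays and PMSG array 2 lay among the control values, so the groups overlapped fully. The log2 difference of 0.65 (SE 0.55) was of the size of its error. The control range, 2.36, was the widest of any member in either label (probe at chr1:202690056-202690115 in rn4).

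Tnnc2, the fast skeletal calcium sensor of the troponin complex, had levels of -1.09, -0.19, -0.14 and -1.05 on control arrays and of -0.47, -0.33, 1.20 and 0.95 on PMSG arrays. PMSG arrays 1 and 2 lay between the control values, while PMSG arrays 3 and 4 lay above all of them. The log2 difference was 0.96 (SE 0.44), and the paired spots differed with an SD of 0.05 (chr3:155807460-155807519 in rn4). Among the array's probes the longest stretch shared with the Tnnc2 probe was 17 bases, in the probe of Tnnc1, its slow and cardiac counterpart. Shared stretches of the other member probes were shorter than that, 15 or 16 bases, and 5 of the 10 shared no stretch of 15 or more.

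Of the genes of energy and oxygen supply, Ckm encodes the muscle creatine kinase that refills ATP from phosphocreatine. It stood at -4.58, -4.68, -3.93 and -5.06 on control arrays and at -5.07, -4.90, -3.31 and -2.93 on PMSG arrays. The PMSG arrays fell into a pair at the low end of the control values and a pair above all control values, so that the PMSG range of 2.14 exceeded the log2 difference of 0.51 (SE 0.51). Its probe lies at chr1:78772431-78772490 (rn4). Mb encodes myoglobin, the oxygen-binding protein of heart and oxidative muscle fibres. Its levels were -0.78, -1.25, -1.31 and -1.04 on control arrays and -0.81, -1.05, -0.41 and -1.37 on PMSG arrays. The groups overlapped over nearly their whole range, and the log2 difference of 0.18 (SE 0.21) lay close to the shift of all probes (chr7:115087578-115087637 in rn4).

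Ankrd2 and Dhrs7c had the largest differences of the 10. Ankrd2, an ankyrin-repeat protein of the sarcomere and nucleus known to respond to stretch, stood at -4.95, -4.95, -4.64 and -5.02 on control arrays. On PMSG arrays it stood at -1.19, -1.67, -1.59 and -2.66. The control arrays lay within 0.38 of each other and all PMSG arrays lay above them, with array 4 lowest. Ankrd2 had a log2 difference of 3.11 (SE 0.29) or 8.64-fold, and 1.91 after normexp background correction. The coordinates given for this 60-base probe span 712 bases, chr1:248807215-248807926 (rn4).

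Dhrs7c, a dehydrogenase of the sarcoplasmic reticulum in heart and skeletal muscle, stood at -5.31, -4.74, -4.90 and -4.65 on control arrays and at -0.85, -1.30, -1.89 and -2.37 on PMSG arrays. The PMSG arrays were again all higher, with array 1 highest and array 4 lowest as for Ankrd2. The log2 difference was 3.30 (SE 0.32) or 9.83-fold, and 2.11 after normexp background correction. This probe was printed in 10 spots per array, of which 6 over all arrays were left out as outliers (chr10:54536109-54536168 in rn4).

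The 10 genes varied more between arrays of a label than most probes did. Their median SD was 0.48 among control arrays, beside 0.16 over all tested probes, and 0.67 among PMSG arrays, beside 0.27. All 10 lay above the median of tested probes in both labels, and 4 lay above the 90th percentile of them in each. These values are a description, since joint variation was the ground on which the genes were proposed. To set the arrays side by side, each value was turned into its deviation from the mean of its label. Control array 3 was the highest control array for 6 of the 10 genes, where 29.6% of tested probes were highest there, and it was the lowest for 3. PMSG array 3 was the highest PMSG array for 4 of the 10, where 37.0% of tested probes were. PMSG array 4 was highest for 3 and lowest for 4, where 20.5% and 47.3% of tested probes were.

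**Figure D2:**
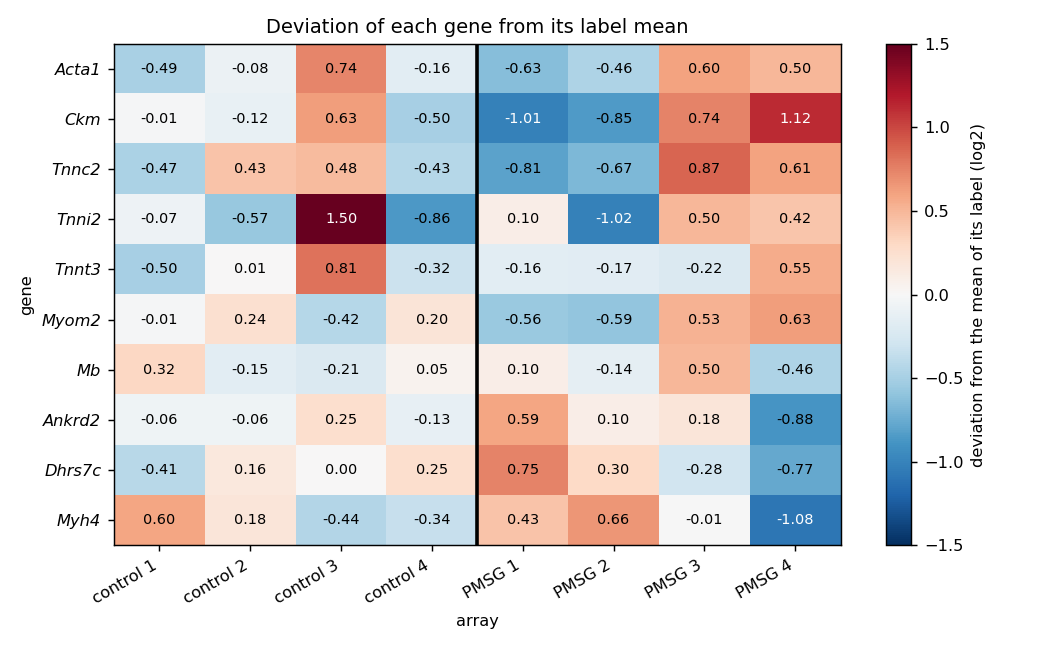
Deviation of each gene on each array from the mean of its label (log2; columns: arrays, rows: genes; red: above the label mean, blue: below). Acta1, Ckm and Tnnc2 lie above the mean on control array 3 and on PMSG arrays 3 and 4. Mb, Ankrd2, Dhrs7c and Myh4 lie below the mean on PMSG array 4.

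The members did not vary as 1 group. The correlation of deviations over the 8 arrays had a median of 0.01 over the 45 pairs of genes, with 23 pairs above 0. These correlations rest on 8 arrays that share hybridisation, slide and scaling and, with label means taken out, on fewer independent values still. The closest pairs were Acta1 with Tnnc2 (Pearson r 0.91, Spearman rho 0.90), Tnnc2 with Ckm (0.89 and 0.90) and Acta1 with Ckm (0.89 and 0.76). Without the 2 arrays farthest from the median of the first gene, r for these pairs was 0.90, 0.83 and 0.88. Ankrd2 with Dhrs7c had r = 0.77 (rho 0.52), but -0.16 without the 2 farthest arrays, so this relation rested on those arrays. The most opposed pairs were Ckm with Dhrs7c (-0.86, rho -0.93, and -0.66 without 2 arrays) and Myh4 with Acta1 (-0.75, rho -0.74, and -0.73).

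Set against the mean deviation of the other 9 members, Acta1 had r = 0.80, Tnnc2 0.74, Tnni2 0.70, Ckm 0.60 and Tnnt3 0.43. Myom2 at 0.14, Mb at -0.04 and Ankrd2 at -0.14 showed little of it, and Dhrs7c at -0.56 and Myh4 at -0.62 ran the other way. For Tnni2 and Tnnt3 some pairs rested on few arrays and others less so. Without the 2 farthest arrays, r fell from 0.72 to 0.34 for Acta1 with Tnni2. It fell from 0.70 to -0.15 for Tnnt3 with Tnni2 and from 0.59 to -0.16 for Tnnt3 with Ckm. Acta1 with Tnnt3 went from 0.72 to 0.84, and Tnni2 with Ckm from 0.68 to 0.59. Tnni2 with Tnnc2 went from 0.57 to 0.42, and Tnnt3 with Tnnc2 from 0.56 to 0.33. Myom2 ran with Tnnc2 and Ckm at rho 0.81 and 0.76, and at r = 0.68 with each, or 0.35 and 0.29 without the 2 farthest arrays. Acta1, Tnnc2 and Ckm were the genes whose pairs all stayed above 0.8 without them. The mean level of the 10 genes ran over a range of 0.56 in control arrays, which came to 0.23 without control array 3. In PMSG arrays the range was 0.62, which came to 0.35 without PMSG array 3.

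Among 7765 genes outside the 10 whose deviations had an SD of at least 0.3, the 8 with deviations most like the members' mean were Wdr86 (Pearson r 0.97), Ank2 (0.96), RGD1305928 (0.94), Wbscr27 (0.94), Il1f10 (0.92), Stac2 (0.92), RGD1564387 (0.92) and Eya2 (0.92). Over these genes rho was 0.81 to 0.98, and r without the 2 farthest arrays was 0.75 to 0.97. An r of at least 0.9 was reached by 15 genes, 0.193% of those examined. The 8 are the highest of 7765 correlations over 8 arrays, and the share that chance would give was not tested. None of the 8 is in the lists of striated or smooth muscle genes. Ank2 encodes an ankyrin of neurons and heart.

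Smooth muscle genes were the list whose deviations lay closest to the members' mean. The median r of its 11 tested genes was 0.76, beside 0.12 over all tested probes and 0.32 over 74 tested striated muscle genes outside the 10. Red blood cell genes followed with 0.68 over 5 genes, among which the haemoglobin gene Hbb had 0.11. Oviduct and surface epithelium genes had 0.46 over 12. Actg2, an actin of visceral smooth muscle, had r = 0.90, Tagln, an actin-binding protein, 0.88, and desmin (Des), which striated muscle also makes, 0.83. Array for array, 10 of the 11 smooth muscle genes were highest on control array 3 and 9 of the 11 on PMSG array 4. The median deviation of the list was 0.32 on control array 3, 0.16 on PMSG array 3, 0.35 on PMSG array 4 and -0.41 on PMSG array 2. Set against this list's median deviation singly, Ckm had r = 0.92 (rho 0.93), Tnnc2 0.92 (0.88) and Acta1 0.90 (0.81), and without the 2 arrays farthest from the list's median these were 0.86, 0.91 and 0.90. Tnni2 and Tnnt3 had r = 0.76 each, and 0.70 and 0.76 without those arrays, and Myom2 had 0.56, or 0.15 without them. Dhrs7c at -0.63, Myh4 at -0.75, Ankrd2 at -0.42 and Mb at -0.32 had r below 0. Against the median deviation of the ovary markers these genes had r above 0. The values were 0.72 for Dhrs7c, 0.60 for Ankrd2, 0.59 for Myh4 and 0.38 for Mb. Without the 2 farthest arrays they were 0.61, 0.41, 0.21 and 0.28. The other members had r of -0.61 to -0.19 with the ovary markers.

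Between the labels, 1 of the 11 smooth muscle genes was higher on arrays labelled PMSG and 0 lower, or 9.09%, beside 34.2% of all probes, with a median log2 difference of -0.07 (limma, adjusted p under 0.05; 1 gene also at an unadjusted p under 0.05). That gene was Myocd, the coactivator of smooth and cardiac muscle genes, higher by 0.94 (SE 0.21, limma adjusted p = 0.0100). Without PMSG array 2 the count was 2. Lmod1, a leiomodin of smooth muscle, differed by 0.57 on the log2 scale (SE 0.26, limma adjusted p = 0.129). The summed level of the list was 7.0 to 7.57 (log2) on control arrays and 6.67 to 7.41 on PMSG arrays.

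Other cell types moved with some of the same arrays. All 12 adipocyte genes were highest on control array 3 among control arrays, with a median deviation of 1.22 there and of -1.18 on control array 2, and 9 of 12 were highest on PMSG array 3. Their summed level (log2) was 3.43 to 6.44 on control and 4.95 to 6.59 on PMSG arrays. All 5 red blood cell genes were highest on control array 3, with a median deviation of 1.39. That median came from Ahsp, Slc4a1 and Epb42 (1.45, 1.39 and 1.45), while Alas2 deviated by 0.57 and Hbb by 0.10. The summed level of the list, of which Hbb made up the largest part, was 6.14 to 6.60 on control and 5.80 to 6.50 on PMSG arrays. Of the 12 oviduct and surface epithelium genes, 8 were highest on control array 3 and 8 on PMSG array 4, and Ckm ran with this list's median deviation at r = 0.93 (rho 0.90, and 0.87 without the 2 farthest arrays) while Dhrs7c ran against it at -0.84 (rho -0.83, and -0.90). Their summed level was 4.66 to 5.07 on control and 5.14 to 5.81 on PMSG arrays. No gene of the smooth muscle, adipocyte, red blood cell or oviduct lists that was measured lay below background on all 8 arrays. The part of these tissues in the levels of the 10 genes was not tested.

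**Figure D3:**
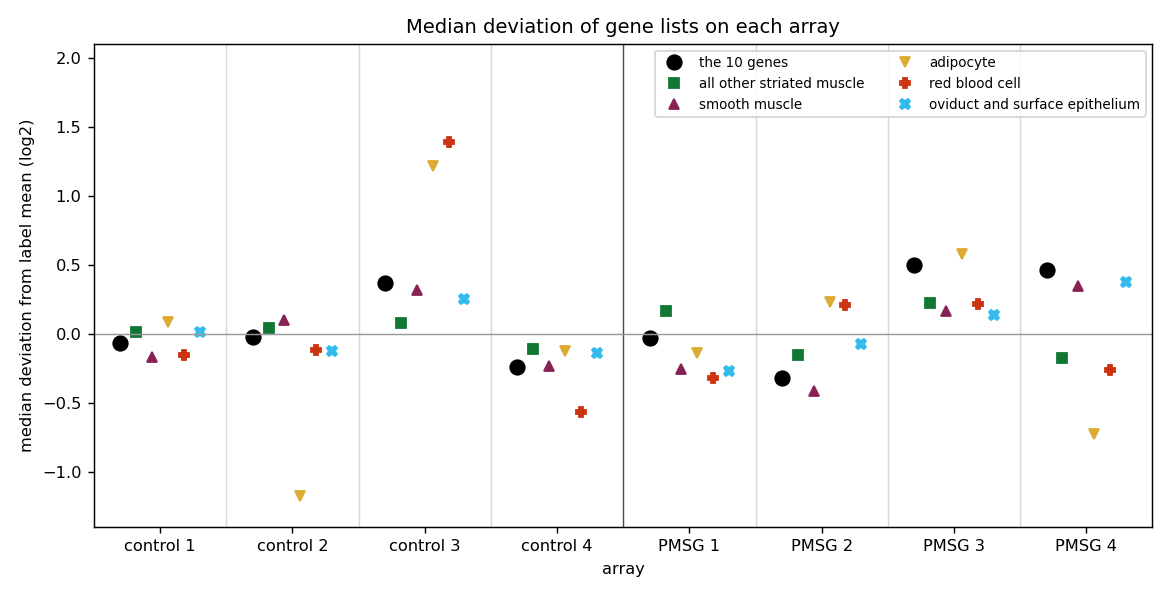
Median deviation from the label mean on each array (vertical axis, log2) for the 10 genes and for 5 lists of other genes (symbols side by side within an array). The 10 genes, the smooth muscle list and the oviduct and surface epithelium list lie above 0 on control array 3 and on PMSG arrays 3 and 4. The adipocyte and red blood cell lists stand highest on control array 3, and the 74 other striated muscle genes stay between -0.18 and 0.22.

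The lists of other cell types are read beside all tested probes, of which 34.2% passed, 17.6% higher and 16.6% lower, with a median log2 difference of 0.11. Adipocyte genes had a median of 0.77, with 3 of 12 (25.0%) higher and 0 lower. Among them Cidea, a lipid droplet protein, was higher by 1.85 (SE 0.37, limma adjusted p = 0.00577), and Retn, which encodes resistin, had 1.20 (SE 0.74, limma adjusted p = 0.236). Of the oviduct and surface epithelium genes 6 of 12 (50.0%) were higher and 0 lower, with a median of 0.58. On the main scale the mucin gene Muc1 was at least 8.03-fold higher (limma adjusted p = 1.71e-04). The ciliary dynein gene Dnah5 was at least 2.77-fold higher there (limma adjusted p = 0.0118). Both were partly below background on control arrays, and with normexp background correction their log2 differences were smaller, 1.45 and 0.45. Dnah5 lost its call in the authors' deposited values (limma adjusted p = 0.221). Of 5 red blood cell genes 1 was lower and 0 higher, Alas2 of haem synthesis by -1.38 (SE 0.22, limma adjusted p = 0.00224), while Ahsp had -1.18 (SE 0.46, limma adjusted p = 0.0797) and passed with median centring (0.0359), normexp background correction (0.0498) and the replicate block (0.0322). Of 7 endothelium genes 4 were lower and 1 higher (71.4% in all), with Flt1 at -1.04 (limma adjusted p = 0.00574) and Tek at least 2.02-fold lower (limma adjusted p = 0.00345), which lost its call with normexp background correction (limma adjusted p = 0.175).

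The other genes of the striated muscle machinery were taken from 7 lists. Of 91 genes listed, 85 were measured by name and 74 tested, and 26 were higher and 5 lower on arrays labelled PMSG, that is 41.9% beside 34.2% of all tested probes. All lists were chosen with earlier results of these data known, so the shares of the lists are no independent test. The median log2 difference of the 74 was 0.51, beside 0.11 over all tested probes, and 43 of the 74 did not pass. Without adjustment 38 had a p under 0.05. Leaving out 1 array at a time gave 24 to 39 genes, median centring gave 22 higher and 5 lower, and normexp background correction 25 higher and 2 lower. Myom3, Myoz3, Ldb3, Srl, Cox7a1 and Adssl1 were not analysed here. The median deviation of these 74 genes lay between -0.18 and 0.22 on every array, and that of the 10 genes between -0.32 and 0.50.

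**Figure D4:**
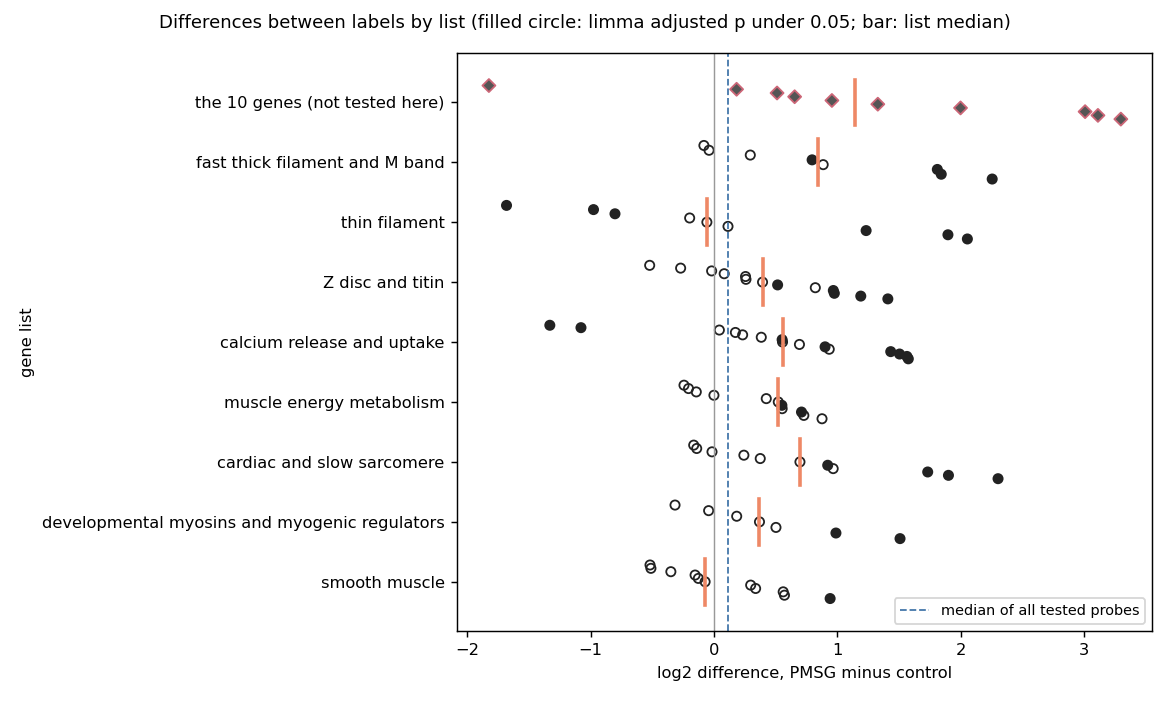
Log2 difference between labels, PMSG minus control (horizontal axis), for the 10 genes (diamonds) and for each tested gene of 7 striated muscle lists and the smooth muscle list (circles; filled: limma adjusted p under 0.05). Orange bars are medians and the dashed line is the median of all tested probes, 0.11; the thin filament and calcium lists hold filled circles on both sides of 0, and the smooth muscle list lies around it.

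For each list the share of all tested probes is 17.6% higher and 16.6% lower. Thick filament and M band genes were higher in 4 of 8 tested (50.0%) and lower in 0, with a median of 0.84. Myh13, a fast myosin heavy chain of eye and larynx muscle, was higher by 2.25 (SE 0.24, limma adjusted p = 3.97e-04). Mybpc1 and Mybpc2, the slow and fast myosin-binding proteins C, were higher by 1.84 and 1.81 (SE 0.10 and 0.30, limma adjusted p = 3.74e-05 and 0.00259). Among members, Myom2 and Myh4 had the same sign. In the thin filament list 3 of 9 were higher and 3 lower, with a median of -0.06. The troponins of slow muscle Tnnc1 and Tnni1 were higher by 2.05 and 1.90 (SE 0.32 and 0.28, limma adjusted p = 0.00191 and 0.00142). Nebulin (Neb), the ruler of the skeletal thin filament, was at least 1.32-fold lower (limma adjusted p = 0.00895), with 0 of 4 PMSG arrays well above background, and lost its call after normexp background correction (limma adjusted p = 0.292).

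The lower genes numbered 5 in all, and the following 4 are named because of their values. The tropomyosin gene Tpm3, also used outside muscle, was lower by -0.98 (SE 0.09, limma adjusted p = 2.47e-04). Lmod3, a leiomodin of skeletal thin filaments, was lower by -0.80 (SE 0.24, limma adjusted p = 0.0351), and lost its call with normexp background correction (-0.16, limma adjusted p = 0.340), with the replicate block (0.0867) and in 6 of the 8 fits that left out an array (0.0503 to 0.0824), all but those without control array 1 or PMSG array 3. In the calcium list, Ryr1, the calcium release channel of skeletal muscle, was lower by -1.33 (SE 0.22, limma adjusted p = 0.00252), and Cacna1s, the voltage sensor that opens it, by -1.08 (SE 0.29, limma adjusted p = 0.0215). With normexp the difference of Ryr1 came to -0.39 (limma adjusted p = 0.00981), and that of Cacna1s to -0.27, which did not pass (0.118). Cacna1s also missed the threshold without control array 1 or 2 (limma adjusted p = 0.0559 and 0.0538).

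Of 15 calcium release and uptake genes, 6 were higher, 2 lower and 7 did not pass, with a median of 0.56. Cacnb1, a subunit of the voltage sensor, was higher by 1.57 (SE 0.17), Hrc, a calcium-binding protein of the sarcoplasmic reticulum where Dhrs7c also resides, by 1.56 (SE 0.15), and triadin (Trdn), which anchors the release complex, by 1.50 (SE 0.22), with limma adjusted p = 4.34e-04, 2.61e-04 and 0.00133. Z disc and titin genes were higher in 5 of 13 (38.5%) and lower in 0, with a median of 0.39. Smpx, a small protein of stretched muscle, was higher by 1.41 (SE 0.23, limma adjusted p = 0.00218) and Myoz1, a calcineurin-binding Z disc protein, by 1.19 (SE 0.14, limma adjusted p = 5.00e-04). Fbxo32, the ubiquitin ligase atrogin-1, was higher by 0.98 (SE 0.26, limma adjusted p = 0.0203) and fell short without control array 4 or PMSG array 1 (limma adjusted p = 0.0575 and 0.0544).

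Energy metabolism genes, the list nearest to Ckm and Mb, were higher in 2 of 11 and lower in 0, that is 18.2%, close to the 17.6% of all probes, with a median of 0.52. Pgam2, a glycolytic mutase of muscle, was higher by 0.71 (SE 0.20, limma adjusted p = 0.0241), and missed the threshold in 5 of the 8 fits that left out an array. Art1, an ADP-ribosyltransferase of muscle, had 0.88 (SE 0.41, limma adjusted p = 0.132), and Fabp3, the fatty acid carrier of heart, 0.73 (SE 0.34, limma adjusted p = 0.128). Both passed without PMSG array 4, with limma adjusted p = 0.0282 and 0.0197. Cardiac and slow sarcomere genes were higher in 4 of 11 (36.4%) and lower in 0, with a median of 0.70. The cardiac myosins Myh6 and Myh7 were higher by 2.30 and 1.90 (SE 0.32 and 0.33, limma adjusted p = 0.00112 and 0.00317) and cardiac troponin I (Tnni3) by 1.73 (SE 0.42, limma adjusted p = 0.0144). Myh6 and Myh7 deviated nearly alike, by 0.81 each on control array 2 and by -0.64 and -0.67 on PMSG array 2. Whether their probes read separate transcripts was not tested.

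Developmental myosins and myogenic regulators were higher in 2 of 7 tested (28.6%) and lower in 0, with a median of 0.37. The perinatal myosin Myh8 was higher by 1.51 (SE 0.41, limma adjusted p = 0.0240) and missed the threshold without control array 1 or 3 or PMSG array 1 or 2 (limma adjusted p = 0.0560 to 0.0630). The fetal acetylcholine receptor subunit Chrng was higher by 0.99 (SE 0.30, limma adjusted p = 0.0356), and missed the threshold in 7 of the 8 fits that left out an array (limma adjusted p = 0.0532 to 0.0890), all but that without PMSG array 4. It also missed with the replicate block (limma adjusted p = 0.0742). The early regulator Myf5 stood at 0.50 on the scale of log2 differences (SE 0.26, limma adjusted p = 0.160), and passed without PMSG array 4 (limma adjusted p = 0.0297).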

How the data were processed

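RNA from ovaries was hybridised to 1-colour Agilent 8x60k arrays. Intensity of spots came from Feature Extraction 11.5.1.1 with detrending, per the file headers. A table of log2 values was deposited too; these by comparison are log2 signals minus the 75th percentile of each array without centring of probes. Columns not used numbered 0. Processed signals of non-control spots were used; outlier spots were left out, log2 values of a probe's spots averaged and the array's 75th percentile over 30350 probes subtracted. Probes well above background (at least 0.5 of spots) on at least 4 of 8 arrays were tested with limma 3.58.1 in R 4.3.3, adjusted by Benjamini-Hochberg over 25303 probes at 0.05; the procedure was tested on simulated data. For genes with several probes the brightest was used. A gene partly below background on the dimmer label is given as "at least", against the higher of the array's lowest well-above-background signal and the probe's own. This figure belongs to the main scale and is no lower limit under other background corrections. With normexp the log2 differences of Muc1, Dnah5, Tek and Neb were smaller (1.45, 0.45, -0.20 and -0.16). All arrays lay on 1 slide and in 1 scan. The number of arrays, 4 per label, limits precision.

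The members and lists were chosen with earlier results of these data known. Named genes are all members, the 3 genes with the largest absolute difference in each striated list, the 2 largest in each other list (of the ovary list, Cyp11a1 and Gdf9), and the 8 genes most like the members' mean deviation; others are named as chosen by their values. Results of the leukocyte and nerve lists are not reported here. Names of genes follow the array files; promoters and motifs are from RefSeq (GRCr8) by symbol and probe coordinates are on rn4.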

Additional observations from a re-analysis of the deposited data

Results flagged for a closer look

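Among 102 groups of 4 arrays examined over the named genes, 3 had 1 array far from the others, with a gap to the nearest array that took an unusual share of the group's range (Dixon's test at the 95% level). Chance gives about 1 in 20 groups, here 5.1. Tnnt3 was the only one of the 10 genes among them, with PMSG array 4 at -2.65 against -3.42 to -3.36 on the other PMSG arrays (gap 0.923 of the range). Myh13 stood at -2.43 on control array 2 against -3.42 to -3.31 (gap 0.892). Wdr86, the gene most like the members' mean, stood at -0.84 on control array 3 against -1.49 to -1.38 (gap 0.831).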

How the results depend on the processing

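The median log2 difference of the 10 genes, 1.14, was 0.73 with normexp background correction, where an added offset pulls dim values together, and 0.84 in the authors' deposited values; without 1 array it ran from 1.00 to 1.24. Of the 10 genes 9 lay above 0 under each of the 17 alternatives, and none of the 10 changed sign. The range of their mean level was 0.23 to 0.56 in control and 0.35 to 0.62 in PMSG arrays when 1 array was left out. Smooth muscle genes past the threshold numbered 1 to 2 without 1 array. The count of all probes ran from 6552 to 11382 without 1 array. The replicate block gave 7346 probes, 29 striated genes (26 of them among the 31) and 1 smooth muscle gene, ended the calls of Chrng and Lmod3 and added calls for Art1, Fabp3 and Ahsp. The labels do not say whether equal numbers pair the arrays. Same-numbered arrays had deviations correlated at 0.0444, 0.0361, 0.183 and -0.0192, which cannot decide this. Slide row as a block gave 8124. Of 37 tested genes named outside the 10, 24 kept direction and call under every alternative run. Normexp shrank 17 of the 37 differences by more than 1.5 times, where only shrinkage was counted, and ended 4 calls (Neb, Tek, Lmod3, Cacna1s). Dnah5 came to 0.45, Muc1 to 1.45, Cacnb1 to 0.71, Mybpc1 to 0.94 and Hrc to 0.81. Signals near background limit these genes and Myh4.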
